A study of Homo sapiens with 16 samples.

Results

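Hepatocyte transcription factors were followed as a list of 10 genes: HNF4A, FOXA1, FOXA2, FOXA3, CEBPA, CEBPB, ONECUT1, NR1H4, NR5A2 and PPARA. Every probe that the array's gene table assigns to one of these symbols was taken, which gave 10 of 30968 probes for 8 of the 10 genes. PPARA had 3 probes and FOXA1, FOXA2, FOXA3, CEBPB, ONECUT1, NR1H4 and NR5A2 had 1 each. No probe carried the symbol HNF4A or CEBPA, and both genes were not analysed here.

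The cells were HepG2, a single established line from a human liver tumour that keeps many hepatocyte functions, grown without serum. The 16 samples formed 4 groups of 4 biological replicates: a control without added fatty acid, and cells given oleic, elaidic or stearic acid, each at 100 µM for 7 days. Oleic acid is the common cis monounsaturated fatty acid, elaidic acid is its trans isomer, and stearic acid is the saturated acid of the same chain length. The series was set up around elaidic acid, a trans fat of the diet, so that control, the cis isomer and the saturated acid each served as its comparison.

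These factors form a network in which most members bind the promoters of other members and of liver genes such as albumin, apolipoproteins and bile acid enzymes. FOXA1, FOXA2 and FOXA3 are forkhead proteins that can bind closed chromatin, CEBPB is a leucine zipper factor of the acute phase and of metabolism, and ONECUT1 (HNF6) is a cut-homeodomain factor of liver and bile duct development. NR1H4 (FXR) is the nuclear receptor for bile acids, NR5A2 (LRH-1) is a nuclear receptor that drives bile acid synthesis genes, and PPARA is the nuclear receptor for fatty acids that switches on their oxidation.

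The arrays fell into 2 ranges of array numbers in the labels, here called slide series A and slide series B. Series A (10 samples) took in every control and oleic acid sample together with replicates 2 and 4 of elaidic acid. Series B (6 samples) took in the whole stearic acid group together with replicates 1 and 3 of elaidic acid. Stearic acid therefore shared no slide series with control or oleic acid, and in those contrasts acid and series can be separated only through the elaidic acid samples, 2 in each series. The median intensity of an array ran from 19.95 to 76.1 units, and control replicate 1 and oleic acid replicate 4 were the dimmest. Correlations between replicates of a group ran from 0.893 to 0.970 over the tested probes. Probes for 12 of 15 hepatocyte marker genes were on the array. Their summed intensity, after scaling arrays to a common median, was 69561 to 132983 in control, 67333 to 172822 in oleic acid, 146818 to 246053 in elaidic acid and 191249 to 269237 in stearic acid. Among them FGA had a median of 0.68 units and was at or below 0 in some samples. One of the FGG probes had a median of 5.27 and reached 668. Cholangiocyte markers (5 of 6 genes) summed to 12921 to 22937 units in control, 11927 to 28170 in oleic acid, 16509 to 23403 in elaidic acid and 28331 to 38323 in stearic acid, carried by KRT19, SOX9 and SPP1, while CFTR and KRT7 were at or below 0 in some samples. Endothelial markers (6 of 6 genes) summed to 403 to 862 units in control, 579 to 1449 in oleic acid, 315 to 806 in elaidic acid and 304 to 402 in stearic acid. The stellate cell sums were 441 to 954 units over all samples (6 of 7 genes) and those of macrophages and leukocytes 1065 to 3685 (6 of 7 genes). In these last 3 lists LRAT, COL3A1, KDR and LYZ were at or below 0 in some samples. Other genes of the same lists were above 0 in every sample, among them CDH5 at 216 to 774 units, CD14 at 811 to 1859 and COL1A1 at 123 to 390.

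FOXA3, CEBPB and NR1H4 are shown with the 250 bases before their RefSeq start site. Their means were higher in series B than in series A. FOXA2 had a higher mean in series B too but is not shown, as it had no promoter entry. The sequences are from RefSeq on GRCh38.p14, on the plus strand, at chr19:45864076-45864325 for FOXA3, chr20:50190580-50190829 for the second of the CEBPB entries and chr12:100503110-100503359 for NR1H4. Capitals mark matches to the motifs searched.
FOXA3: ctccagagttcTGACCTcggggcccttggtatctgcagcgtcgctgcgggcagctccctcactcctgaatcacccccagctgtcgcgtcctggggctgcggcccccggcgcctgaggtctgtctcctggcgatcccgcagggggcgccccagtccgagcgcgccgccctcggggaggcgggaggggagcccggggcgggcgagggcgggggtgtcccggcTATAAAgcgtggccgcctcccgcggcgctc
CEBPB: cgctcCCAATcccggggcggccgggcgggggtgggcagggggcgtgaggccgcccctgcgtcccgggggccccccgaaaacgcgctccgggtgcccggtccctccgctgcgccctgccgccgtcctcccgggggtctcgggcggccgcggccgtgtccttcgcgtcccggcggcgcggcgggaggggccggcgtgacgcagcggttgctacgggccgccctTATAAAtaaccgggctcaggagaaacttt
NR1H4: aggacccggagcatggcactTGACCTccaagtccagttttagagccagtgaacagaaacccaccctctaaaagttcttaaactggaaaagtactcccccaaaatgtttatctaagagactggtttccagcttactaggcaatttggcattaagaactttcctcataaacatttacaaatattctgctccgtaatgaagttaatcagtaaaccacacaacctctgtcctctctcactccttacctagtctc
The FOXA3 and CEBPB stretches were rich in G and C (75.2% and 77.6%), and that of NR1H4 was not (42.0%), against a median of 58.7% over the 300-base promoters of all genes. Motifs were searched on both strands from 250 bases before to 50 after each start site, in the 9 of 10 members that the RefSeq table holds; FOXA2 was the one without an entry. The nuclear receptor half-site AGGTCA was found on the minus strand at -239 in FOXA3 and at -230 in NR1H4, and 13.8% of all promoters hold it. TATAAA lay at -30 in FOXA3 and at -29 in CEBPB (11.5% of all promoters), and CCAAT at -245 in CEBPB (34.6%). The forkhead core TGTTTAC (3.42% of all promoters) and the C/EBP pattern TTGCNNAA (10.5%) were in none of these 3 windows.

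FOXA3 gave the clearest separation of samples. Its intensities were 47.0, 126, 172 and 208 units in control replicates 1 to 4 and 199, 143, 166 and 42.8 in oleic acid. They were 682, 167, 567 and 164 in elaidic acid, and 1255, 903, 996 and 1253 in stearic acid. All stearic acid samples lay above all others, and elaidic acid replicates 1 and 3 lay between them and the rest. On the normalised log2 scale the group means were 7.09 ± 0.32 in control, 7.18 ± 0.68 in oleic acid, 8.28 ± 0.74 in elaidic acid and 9.61 ± 0.24 in stearic acid (SD, n = 4 each).

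CEBPB was also highest in stearic acid by group mean, with a wider spread within the other groups. It read 54.2, 544, 299 and 882 units in control, 407, 470.3, 396 and 70.9 in oleic acid, 3735, 589.9, 3244 and 438 in elaidic acid, and 3586, 2732, 2317 and 3361 in stearic acid. Elaidic acid replicates 1 and 3 were as bright as the stearic acid samples, while replicates 2 and 4 lay inside the range of control. Its group means on the log2 scale were 8.41 ± 1.20, 8.35 ± 0.99, 10.32 ± 1.19 and 10.98 ± 0.32 in control, oleic, elaidic and stearic acid (SD, n = 4 each).

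FOXA2, a regulator of hepatic lipid and glucose genes, read 219, 1166, 905 and 3714 units in control and 728, 1349, 1462 and 188 in oleic acid. In elaidic acid it read 4933, 1075, 5544 and 869, and in stearic acid 4004, 2564, 3639 and 3979. Control replicate 4 reached the stearic acid range, so that control and stearic acid overlapped. All oleic acid samples lay below all stearic acid samples. FOXA1 had its lower means in elaidic and stearic acid. It read 209, 216, 435 and 425 units in control and 199.9, 387, 558 and 202 in oleic acid. For elaidic acid the readings were 204, 255, 183 and 401, and for stearic acid 149, 391, 215 and 398. No pair of groups was separated for FOXA1, whose log2 means ranged from 7.71 ± 0.56 in stearic acid to 8.51 ± 0.41 in oleic acid (SD, n = 4 each).

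NR1H4, the bile acid receptor, read 15.5, 68.1, 56.6 and 146 units in control and 61.8, 86.7, 104 and 10.4 in oleic acid. It read 573, 83.0, 374 and 98.2 in elaidic acid and 200.0, 145, 209 and 339 in stearic acid. The highest readings were those of elaidic acid replicates 1 and 3, and the lowest those of the dimmest arrays, control replicate 1 and oleic acid replicate 4. Its log2 means were 5.84 ± 0.79, 5.80 ± 1.20, 7.64 ± 1.04 and 7.38 ± 0.34 in control, oleic, elaidic and stearic acid (SD, n = 4 each).

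ONECUT1 and NR5A2 were dim. ONECUT1 read 14.0, 16.4, 18.2 and 63.6 units in control, 15.0, 16.7, 35.6 and 5.83 in oleic acid, 14.7, 10.5, 13.8 and 13.5 in elaidic acid, and 7.76, 13.0, 18.0 and 13.5 in stearic acid, below the array's median intensity in 16 of 16 samples. NR5A2 lay between -5.51 and 12.5 units, at or below 0 in 4 samples (oleic acid replicates 1 and 3, stearic acid replicates 1 and 2) and below the array's median in 16 of 16. NR5A2 was therefore not tested, and its level could not be told from background.

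The 3 PPARA probes differed from one another. Probe PH_hs_0035085 read 896, 1106, 1519 and 1657 units in control, 1093, 1354, 1270.2 and 2022 in oleic acid, 1080.5, 1046, 1427 and 943 in elaidic acid, and 1050.4, 744, 1398 and 1267 in stearic acid. Probe PH_hs_0023352 read 176, 167, 362 and 584 units in control, 220.4, 312, 508 and 295 in oleic acid, 177, 247, 337 and 206 in elaidic acid, and 197, 238, 279 and 319.5 in stearic acid. Before normalisation the groups overlapped on both, and after it the stearic acid samples lay below all oleic acid samples on both. Probe PH_hs_0034827 was dim, at 2.63 to 16.9 units over the 16 samples and below the array's median in all of them, with no separation of any groups.

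**Figure D1:**
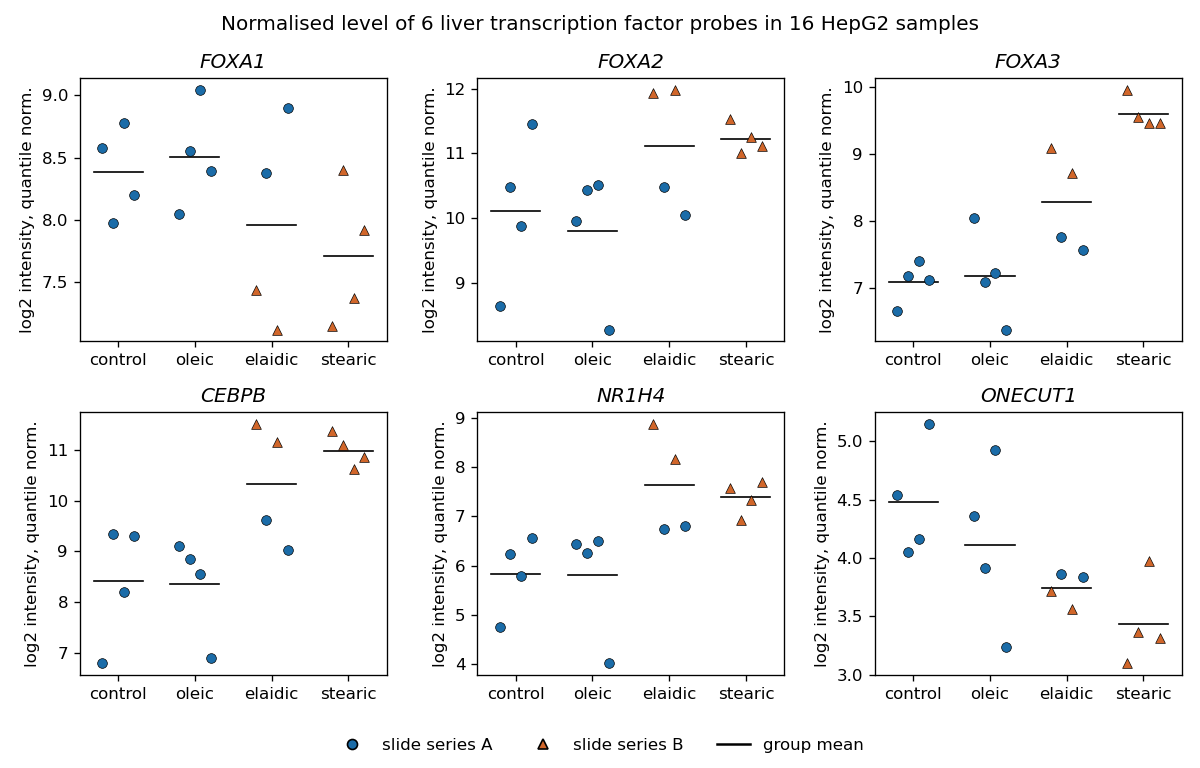
Normalised log2 intensity (vertical axes) of the probes of FOXA1, FOXA2, FOXA3, CEBPB, NR1H4 and ONECUT1 in each of the 16 samples, by group, with circles for slide series A, triangles for slide series B and a line at the group mean. The series B points of FOXA3 and CEBPB, in elaidic and stearic acid, lie above all series A points.

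**Figure D2:**
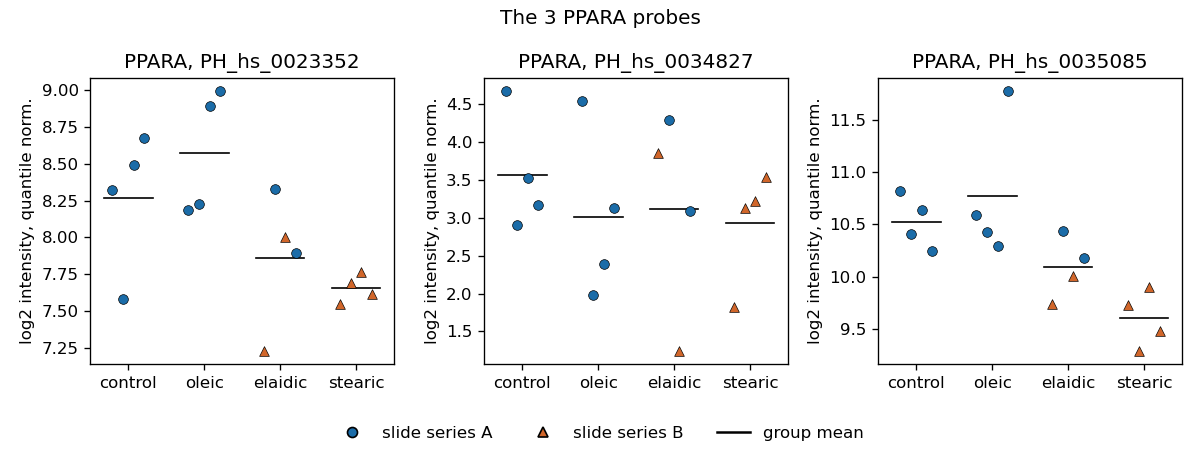
Normalised log2 intensity of the 3 PPARA probes in the 16 samples, by group. Probes PH_hs_0035085 and PH_hs_0023352 have their lowest group mean in stearic acid (9.60 and 7.65), and probe PH_hs_0034827 overlaps between all groups. Circles stand for slide series A, triangles for slide series B and lines for group means.

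Elaidic acid against control asks what the trans fat does to these factors. No member probe was called (limma, Benjamini-Hochberg adjusted p under 0.05 over 22939 tested probes), with 0.323% of all probes called. The largest estimates were CEBPB at 1.92 ± 0.64 log2 (SE, 95% interval 0.56 to 3.27, adjusted p = 0.21), NR1H4 at 1.81 ± 0.58 (0.57 to 3.05, adjusted p = 0.20) and FOXA3 at 1.19 ± 0.37 (0.41 to 1.98, adjusted p = 0.19). These 3 and ONECUT1 (-0.73 ± 0.34) had an unadjusted p under 0.05, which 14.3% of all probes had. On the normalised scale FOXA3, ONECUT1 and NR1H4 did not overlap between elaidic acid and control, as 6.50% of all probes did not. Before normalisation the intensities of all 3 overlapped. The median over the 9 member probes, 3 of them for PPARA, was -0.41 beside -0.10 over all probes. Of the 9 estimates 4 were higher in elaidic acid, for the genes FOXA2, FOXA3, CEBPB and NR1H4, so the median does not describe the genes as a set. The hepatocyte marker sums lay higher in elaidic acid than in control without overlap (146818 to 246053 against 69561 to 132983), and their part in these values was not tested. With sample weights estimated from the data, 4 members were called (FOXA2, FOXA3, CEBPB and NR1H4), and 20.3% of all probes were.

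With slide series as a block in the limma fit on all 16 samples, the estimate is the difference within slide series A. It compares elaidic acid replicates 2 and 4 with the 4 controls. The estimates were smaller: 0.91 ± 0.66 for CEBPB (95% interval -0.51 to 2.33, adjusted p = 0.96), 0.94 ± 0.62 for NR1H4 (-0.39 to 2.27, adjusted p = 0.92) and 0.57 ± 0.37 for FOXA3 (-0.21 to 1.36, adjusted p = 0.91). FOXA2 stood at 0.15 ± 0.66 there, from 0.99 ± 0.60 over both series, and FOXA1 at 0.25 ± 0.37, from -0.43 ± 0.39. In the fit with slide series as a block 0.0392% of all probes and no member were called. Within series A FOXA3, ONECUT1 and NR1H4 still did not overlap on the normalised scale, as 12.9% of all probes did not with these few samples. Before normalisation FOXA3 and NR1H4 lay inside the control range.

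Against the cis isomer the picture was alike. No member was called for elaidic against oleic acid (0.318% of all probes), and the estimates were 1.98 ± 0.64 for CEBPB, 1.84 ± 0.58 for NR1H4, 1.31 ± 0.60 for FOXA2 and 1.10 ± 0.37 for FOXA3, with adjusted p from limma of 0.17, 0.17, 0.26 and 0.18. Both PPARA probes of usable brightness were lower in estimate, at -0.71 ± 0.29 and -0.68 ± 0.30 (adjusted p = 0.23 and 0.24). With slide series as a block, which gives the difference within series A, they were 0.97 ± 0.66 for CEBPB and 0.98 ± 0.62 for NR1H4. FOXA2 was at 0.47 ± 0.66 and FOXA3 at 0.48 ± 0.37. With estimated sample weights 5 members were called (FOXA1, FOXA2, FOXA3, CEBPB and NR1H4), beside 39.0% of all probes. These 5 estimates, too, lay further from the differences within series A than without weights. On the normalised scale NR1H4 was the only tested member without overlap between the groups (7.08% of all probes). The same held within series A (12.6%). Before normalisation its intensities overlapped in both. With the block no member was called, beside 0.0218% of all probes. This contrast shares the elaidic acid samples with the contrast against control.

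Oleic acid against control lies wholly in series A, and no member and no other probe was called by limma (0 of 22939, with 602 at an unadjusted p under 0.05, none of them a member). No member was free of overlap, beside 1.23% of all probes. The estimates for tested members ran from -0.55 to 0.31 log2. Their 95% intervals were -1.42 to 1.30 for CEBPB, -0.70 to 0.88 for FOXA3, -1.27 to 1.21 for NR1H4 and -0.32 to 0.93 for PPARA probe PH_hs_0023352. A difference anywhere within these intervals is compatible with the 4 samples a group.

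Stearic acid against control gave 4 called probes of 9, beside 29.8% of all probes. FOXA3 was higher by 2.52 ± 0.37 log2 or 5.72-fold (95% interval 1.73 to 3.30, adjusted p = 0.00097), and CEBPB by 2.57 ± 0.64 or 5.96-fold (1.22 to 3.93, adjusted p = 0.010). ONECUT1 fell by 1.04 ± 0.34 log2 (adjusted p = 0.032), and PPARA probe PH_hs_0035085 fell by 0.93 ± 0.30 (adjusted p = 0.033). NR1H4 stood at 1.55 ± 0.58 (adjusted p = 0.055), FOXA2 at 1.11 ± 0.60 (adjusted p = 0.16) and FOXA1 at -0.67 ± 0.39 (adjusted p = 0.18). Of the 9 probes, 5 did not overlap between the groups, beside 37.6% of all probes. The hepatocyte and cholangiocyte marker sums also lay higher in stearic acid than in control without overlap. The endothelial sums lay lower and only just did not overlap, at most 402.0 in stearic acid and at least 402.9 in control. The part of these markers in the results was not tested.

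With slide series as a block no probe of the array was called in this contrast (limma, 0 of 22939, with 1710 at an unadjusted p under 0.05). FOXA3 then stood at 1.28 ± 0.52 log2 (95% interval 0.17 to 2.39, adjusted p = 0.57), CEBPB at 0.57 ± 0.94, ONECUT1 at -0.83 ± 0.59 and PPARA probe PH_hs_0035085 at -0.49 ± 0.51. The estimates turned sign for FOXA1 (0.69 ± 0.53), FOXA2 (-0.58 ± 0.93), NR1H4 (-0.18 ± 0.88) and PPARA probe PH_hs_0034827 (0.50 ± 1.13). Without the dimmest arrays 4 of the 9 probes were called, beside 19.5% of all probes, and with estimated sample weights 6, beside 46.1%. FOXA3 and CEBPB kept their calls in 8 of 8 fits that left out 1 sample of either group. ONECUT1 lost its call without control replicate 1 or 4 or stearic acid replicate 1, 2 or 4, and PPARA probe PH_hs_0035085 without control replicate 1 or 3 or stearic acid replicate 1, 2 or 4, with adjusted p up to 0.091 and 0.094. The PPARA estimate was -0.21 without normalisation and that of ONECUT1 -0.26 with an offset of 50 units.

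Oleic acid against stearic acid, the monounsaturated acid against the saturated one, gave 5 called probes of 9, beside 39.5% of all probes. FOXA3 was lower in oleic acid by 2.42 log2 (-2.42 ± 0.37, adjusted p = 0.0011), CEBPB by 2.63 (-2.63 ± 0.64, adjusted p = 0.0080) and NR1H4 by 1.58 (-1.58 ± 0.58, adjusted p = 0.043). PPARA was higher in oleic acid on probe PH_hs_0035085 (1.17 ± 0.30, adjusted p = 0.010) and probe PH_hs_0023352 (0.92 ± 0.29, adjusted p = 0.025). With slide series as a block none was called: the limma estimates became -1.18 ± 0.52 for FOXA3 (adjusted p = 0.73), -0.63 ± 0.94 for CEBPB, 0.15 ± 0.88 for NR1H4, and 0.73 ± 0.51 and 0.43 ± 0.49 for the PPARA probes. The groups did not overlap for 6 of 9 probes, beside 44.7% of all probes. FOXA2 was among the 6 but was not called, at -1.43 ± 0.60 without the block (limma, adjusted p = 0.068). NR1H4 lost its call without oleic acid replicate 2 or 4 or any stearic acid sample, at adjusted p up to 0.15. PPARA probe PH_hs_0023352 lost it without oleic acid replicate 3 or 4 or stearic acid replicate 1 or 4, at adjusted p up to 0.079. Without normalisation NR1H4 and both of these PPARA probes lost their calls. NR1H4 and PPARA probe PH_hs_0023352 also lost theirs without the dimmest arrays. Without the dimmest arrays 4 of the 9 probes were called (26.5% of all probes), and with estimated sample weights 8 (59.0%). This contrast shares the stearic acid samples with the one against control.

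Elaidic acid against stearic acid, the trans monounsaturated against the saturated acid, gave no called member beside 0.397% of all probes. FOXA3 had the largest estimate, lower in elaidic acid (-1.32 ± 0.37, 95% interval -2.11 to -0.53, adjusted p = 0.13), and it was the only tested member whose groups did not overlap (11.9% of all probes). FOXA3 was called with an offset of 50 units and with estimated sample weights (4.49% of all probes). It was not called without the dimmest arrays (1.32%). With slide series as a block in the limma fit on all samples, the estimate is the difference within series B. It compares elaidic acid replicates 1 and 3 with the 4 stearic acid samples. FOXA3 was at -0.70 ± 0.37 (-1.49 to 0.08, adjusted p = 0.94), NR1H4 at 1.12 ± 0.62 (-0.20 to 2.45) and FOXA2 at 0.73 ± 0.66. FOXA2, FOXA3 and NR1H4 did not overlap within series B, beside 23.4% of all probes, and no member was called with the block (0.00436% of all probes). CEBPB stood at 0.35 in that comparison, from -0.66 ± 0.64 over both series.

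**Figure D3:**
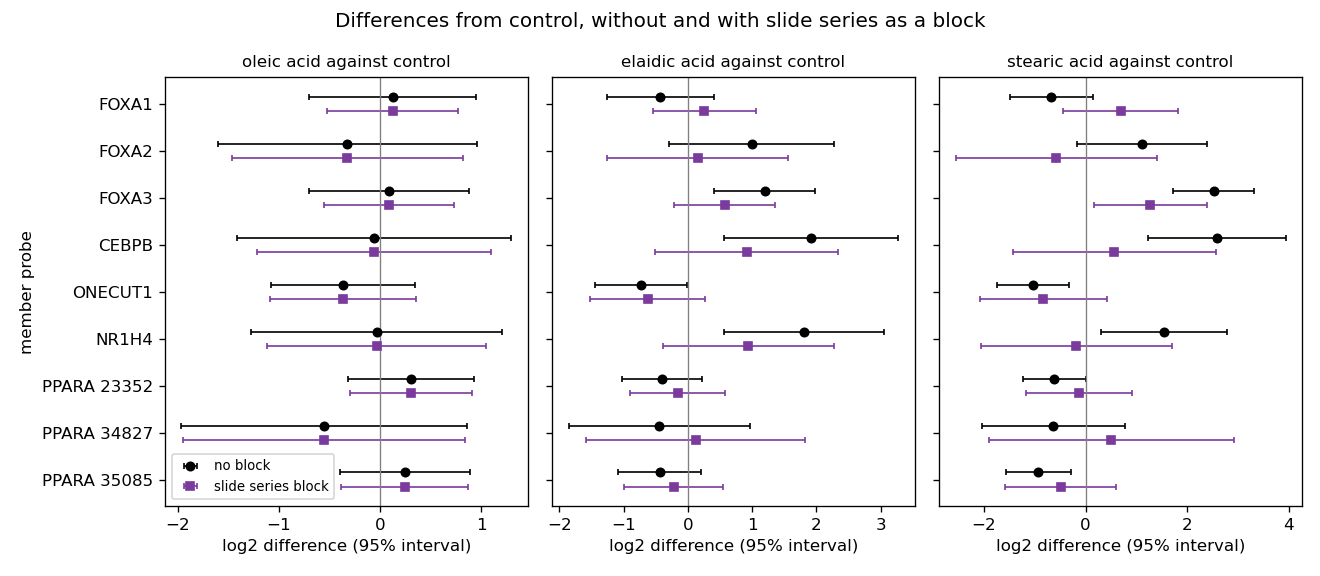
Log2 differences of the 9 tested member probes between each acid and control, with 95% intervals from limma, without and with slide series as a block. The stearic acid differences of FOXA3 (2.52) and CEBPB (2.57) move to 1.28 and 0.57 with the block, and the oleic acid differences against control stay at the same values.

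The elaidic acid group, with 2 samples in each slide series, gives the difference between the series at a fixed acid. CEBPB was 2.01 ± 0.77 log2 or 4.02-fold higher in series B (95% interval 0.37 to 3.65, adjusted p = 0.12), NR1H4 1.73 ± 0.72 (0.20 to 3.26, adjusted p = 0.14), FOXA2 1.68 ± 0.76 (0.06 to 3.30, adjusted p = 0.17) and FOXA3 1.24 ± 0.42 (0.33 to 2.15, adjusted p = 0.096). FOXA1 was lower there, at -1.36 ± 0.43 (-2.28 to -0.44, adjusted p = 0.079). None of these 9 member probes was called, beside 4.05% of all probes. An unadjusted p under 0.05 was found for 5 of the 9 and for 28.0% of all probes. The elaidic acid samples of the series did not overlap for 7 of 9 member probes, beside 68.9% of all probes. Without control replicate 1 and oleic acid replicate 4, the dimmest arrays, limma called these 5 probes, beside 21.3% of all probes, at an adjusted p of 0.047 for FOXA1, 0.018 for FOXA2, 0.021 for FOXA3, 0.0079 for CEBPB and 0.0069 for NR1H4. The same 5 were called with estimated sample weights, beside 32.4% of all probes. Neither array left out is an elaidic acid sample, and all 5 estimates stayed the same in both settings. The standard errors, pooled over the groups, changed. Without the dimmest arrays that of CEBPB went from 0.77 to 0.40 and that of FOXA1 from 0.43 to 0.44.

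Over all acids, FOXA3 lay at 42.8 to 208 units in the 10 samples of series A and at 567 to 1255 in the 6 of series B, and CEBPB at 54.2 to 882 and 2317 to 3735. Neither overlapped between the series, and the share of all probes without overlap in this split was not counted. The split also sets all control and oleic acid samples against all stearic acid samples, so it mixes acid with series. FOXA2 overlapped, at 188 to 3714 in series A and 2564 to 5544 in series B, as did FOXA1 at 199.9 to 558 and 149 to 398. Within series A the brightness of the array moved with FOXA2: its normalised value correlated with the array's median intensity at r = 0.83 (permutation p = 0.0025, adjusted over 9 probes 0.023; Spearman's rho 0.78, permutation p = 0.011, adjusted 0.0996). Without control replicates 1 and 4 the r was 0.66, and no other member passed after adjustment.

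**Figure D4:**
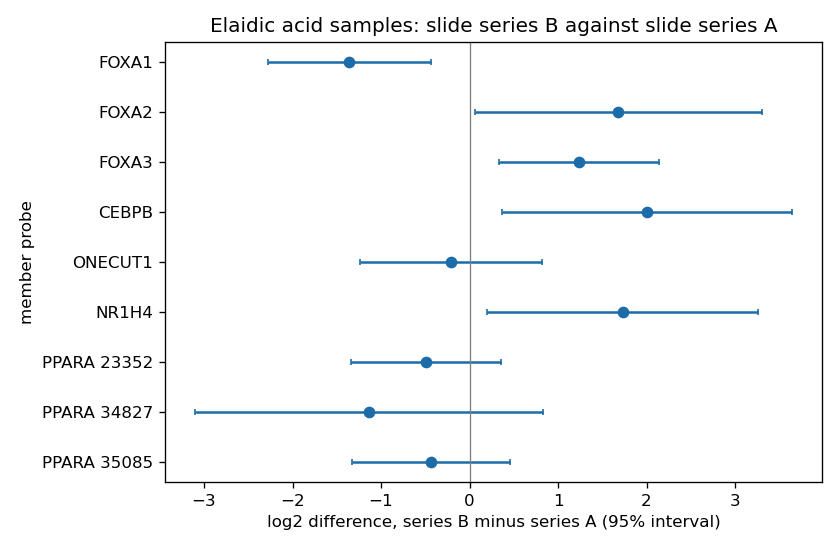
Difference between slide series B and slide series A in the elaidic acid samples for the 9 tested member probes, in log2 units, with 95% intervals from limma. The intervals of FOXA2, FOXA3, CEBPB and NR1H4 lie above 0 and that of FOXA1 lies below 0.

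Other liver transcription factors were counted in the same contrasts. Of 40 listed genes, 35 had a probe and 37 probes of 30 genes were tested. None was called for elaidic or oleic acid against control, and 9 probes were called higher and 5 lower in stearic acid than in control (15.0% and 14.8% of all probes). ATF5, a stress-response factor, was 2.29 ± 0.34 log2 higher (adjusted p = 0.00098), and GATA4, which binds beside FOXA factors, 1.68 ± 0.25 (adjusted p = 0.00098). PPARD, a fatty acid receptor related to PPARA, was 2.13 ± 0.41 higher (adjusted p = 0.0030). The partner of CEBPB, CEBPG, was 2.19 ± 0.45 higher (adjusted p = 0.0045). TEF, a clock output factor, was 2.46 ± 0.55 higher (adjusted p = 0.0065). Its probe was about as dim as that of ONECUT1, with a mean of 3.72 on the normalised log2 scale. Its estimates are limited by signal over background. With the slide series block ATF5 stood at 2.20 ± 0.60 and TEF at 2.32 ± 0.98 in limma, both uncalled (adjusted p = 0.39 and 0.60), while CEBPG stood at 0.44 ± 0.57. CEBPG was the 1 called member of the list between slide series, at 1.75 ± 0.46 (adjusted p = 0.049).

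Hepatocyte products, the secreted proteins and enzymes that these factors drive, had 28 tested probes of 23 genes. In stearic acid against control 11 were called higher and 3 lower (15.0% and 14.8% of all probes), with a median change of 0.69 beside -0.18 over all probes. Transferrin (TF) was 3.18 ± 0.48 log2 higher (adjusted p = 0.00098), AHSG (fetuin-A) 1.71 ± 0.32 (adjusted p = 0.0029), the tyrosine catabolic enzyme HPD 1.89 ± 0.42 (adjusted p = 0.0061) and the fibrinogen chain FGG 1.67 ± 0.39 (adjusted p = 0.0077). With the slide series block the list median in stearic acid against control was 0.28, beside 0.01 over all probes. In elaidic acid against control the list had 1 called probe, for TTR, the thyroid hormone carrier transthyretin. TTR probe PH_hs_0019852 was 1.73 ± 0.28 log2 higher (adjusted p = 0.014) and stood at 1.66 ± 0.34 with the slide series block (adjusted p = 0.12). The second TTR probe, PH_hs_0033292, was at 2.33 ± 0.58 (adjusted p = 0.11). This second probe was called higher in stearic acid against control (2.19 ± 0.58, limma, adjusted p = 0.014), and stood at 1.12 ± 0.98 there with the block. Probe PH_hs_0019852 was not called in stearic acid against control (0.58 ± 0.28, limma, adjusted p = 0.12). Against oleic acid, TTR probe PH_hs_0019852 (1.82, adjusted p = 0.015) and the plasma glycoprotein gene APOH (1.21 ± 0.22, adjusted p = 0.034) were called higher in elaidic acid.

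Genes known as targets of NR1H4 and NR5A2 were tested with 9 probes of 9 genes. None was called for elaidic or oleic acid against control. Stearic acid against control gave 3 called higher and 1 called lower of the 9 probes, beside 15.0% and 14.8% of all probes. They were CYP27A1, a bile acid synthesis enzyme, at 2.39 ± 0.51 (adjusted p = 0.0053), the proteoglycan SDC1 at 1.56 ± 0.34 (adjusted p = 0.0055), the repressor NR0B2 (SHP), which is also in the factor list, at 0.76 ± 0.19 (adjusted p = 0.011), and FETUB at -1.06 ± 0.36 (adjusted p = 0.040). ABCB11, the bile salt export pump, was higher in oleic than in stearic acid (0.89 ± 0.32, adjusted p = 0.038). CYP27A1 was also called between slide series, at 2.25 ± 0.45 (adjusted p = 0.021), and its stearic acid difference with the block was 0.14.

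Targets of PPARA, mostly genes of fatty acid uptake and oxidation, had 14 tested probes of 12 genes. FABP1, which carries fatty acids inside liver cells, was the 1 target called in elaidic acid against control, on probe PH_hs_0018467 (2.23 ± 0.43 log2, adjusted p = 0.040). Its other probe, PH_hs_0038783, was at 2.14 ± 0.52 (adjusted p = 0.10), and both were called against oleic acid (2.48 and 2.68, adjusted p = 0.024 and 0.043). With the slide series block FABP1 probe PH_hs_0018467 stood at 1.77 ± 0.50 (adjusted p = 0.35). In stearic acid against control 7 of the 14 probes were called higher and none lower (15.0% and 14.8% of all probes), with a median of 0.52 beside -0.18. They were both FABP1 probes, the peroxisomal thiolase ACAA1 (1.98 ± 0.65), the mitochondrial enzymes ACADM (1.54 ± 0.45) and HADHA (1.12 ± 0.30), the acylcarnitine carrier SLC25A20 (0.79 ± 0.21) and the lipid droplet protein ADFP, now called PLIN2 (0.63 ± 0.21). ACAA1 and ACADM were also called between slide series, at 2.90 ± 0.57 and 1.79 ± 0.44 (adjusted p = 0.020 and 0.039). With the block their stearic acid differences turned to -0.92 and -0.25. The list median in stearic acid against control was -0.05 with the block, beside 0.01 over all probes. Between slide series it was 0.69, beside -0.13. With the block no probe of these 4 lists was called by limma in any of the 6 contrasts between groups.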

How the data were processed

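The deposited values are linear intensity per probe and sample, background-subtracted and not scaled between samples, as seen from the values. Per the labels, total RNA was amplified with aminoallyl-UTP, coupled to Cy5 and hybridised to 2 technical replicate arrays per sample. How these were combined is not given in the sources used here.

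Intensities were transformed to log2. Of 30968 probes, 8029 had at least 1 sample at 0 or below and were dropped, and the remaining 22939 were quantile normalised. Each of the 6 contrasts was fitted with limma 3.58.1 (lmFit and eBayes, two-sided) in R 4.3.3 on all 16 samples, with calls at an adjusted p (Benjamini-Hochberg) under 0.05. Slide series was added as a block in a fit on the same 16 samples, so its standard errors pool the spread over all groups. Overlap of probes between groups was counted on the normalised log2 values. The code was tested on simulated data. Of the probes, 17397 had a symbol and 13571 had none. The number of arrays limits the precision. In such bulk samples of a single cell line, fewer cells expressing a gene and less RNA per cell cannot be told apart. The labels do not say how biological replicates were separated, so p-values measure the spread between these samples.

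The members and the lists were chosen with earlier results of these data known. Of each list, up to 6 called genes with the smallest p are named. Normalisation, dim probes, sample weights, variance models, the replicate block, slide series and leaving out samples were tried as alternatives. Promoters are from RefSeq (GRCh38.p14). Plots used matplotlib 3.10.9 and Python 3.11.15.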

Additional observations from a re-analysis of the deposited data

Results flagged for a closer look

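NR1H4 in oleic acid had 1 sample far from the others: replicate 4 lay at 4.01 on the normalised log2 scale and the next sample at 6.26. The gap was 0.906 of the group's range, above Dixon's 95% critical value for 4 samples. It was the only such sample among 36 groups of values tested, and chance alone gives about 1 in 20. Oleic acid replicate 4 was also 1 of the 2 dimmest arrays. Without it the NR1H4 difference of oleic acid against control was 0.56, with control replicate 1, the other of these arrays, kept. With both left out it was 0.20 ± 0.48.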

How the results depend on the processing

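Over 32 settings, 1350 of 1444 estimates for member probes kept their sign and 94 turned. Of the called differences, 1 was reversed: NR1H4 in oleic against stearic acid went from -1.58 to 0.15 with slide series as a block, and to 0.74 when the dimmest 2 arrays were also left out.

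The count of called member probes in stearic acid against control went from 4 to 2 without normalisation, with a floor of 1 unit and with a replicate block (13.5%, 16.9% and 23.0% of all probes called, from 29.8%). It went to 0 with slide series as a block, with or without the dimmest arrays (0% of all probes). Leaving out 1 sample gave 2 to 5 probes; the 2 came without control replicate 1 or stearic acid replicate 1, 2 or 4 (15.7%, 15.5%, 25.1% and 19.4% of all probes). In oleic against stearic acid the count went from 5 to 2 without normalisation (22.3% of all probes, from 39.5%), to 8 with sample weights (59.0%) and to 0 with slide series as a block, again with or without the dimmest arrays (0%). Leaving out 1 sample gave 3 to 5 probes, with 3 without stearic acid replicate 1 or 4 (22.8% and 26.5%). Sample weights took 0 to 4 in elaidic acid against control (20.3% of all probes), 0 to 5 against oleic acid (39.0%) and 0 to 1 against stearic acid (4.49%), where an offset of 50 also gave 1 (1.88%). Between slide series the 0 became 3 with an offset of 50 (7.95%), 1 without the probes dimmer than the median probe (8.62%), 5 with sample weights (32.4%) and 5 without the dimmest arrays (21.3%). Leaving out 1 sample gave 0 to 2 there, with 2 without oleic acid replicate 4 (7.38%). The cause of these differences was not tested.

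Same-numbered replicates did not deviate together: 24 pairs correlated at -0.46 to 0.36, 7 of them over 0.1, and 1 of 16 samples correlated best with its own number. The replicate block left 2 called member probes in stearic acid against control and 4 in oleic against stearic acid.

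Without normalisation the median over all probes moved from -0.18 to 0.26 in stearic acid against control and from 0.21 to -0.39 in oleic against stearic acid. Settings that leave out the dimmest arrays were chosen after seeing the data. ONECUT1, NR5A2 and PPARA probe PH_hs_0034827 are limited by signal over background.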
